A study of Caenorhabditis elegans with 22 samples.

Results

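The comparison described here is the expression difference between *ssu-1* mutant and wild-type *C. elegans* embryos kept at low salt, 50 mM NaCl, where no osmotic stress was applied. It rests on 4 of the 22 libraries of the series, 2 from *ssu-1* mutants and 2 from wild type, chosen by their labels for strain and NaCl concentration and not by any measured value. The series is mRNA sequencing of embryos collected after 3 h on plates with 50 or 500 mM NaCl, in an experiment with *ssu-1* mutants (10 libraries) and another with *daf-16* mutants (12 libraries), and its purpose was to find genes whose induction by osmotic stress needs SSU-1 or DAF-16. The wild type is the Bristol strain N2. Libraries were assigned to the 2 experiments by the series in their library numbers. Wild-type replicates 3 and 4 at 50 mM NaCl have numbers apart from the other libraries of the *daf-16* experiment. For the mutant libraries the labels list the *ssu-1* alleles fc73, n5883, tm1117, gk266317, gk747222, gk876992 and gk319712 and the transgene zIs356, which carries *daf-16* fused to *gfp* under the *daf-16* promoter with *rol-6* as its marker, whereas the growth protocol and the methods name fc73 alone. All groups were embryos on standard agar plates, and no source states whether the libraries of a group came from separate cultures, so that p-values measure only the spread between these libraries.

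SSU-1 is a cytosolic sulfotransferase of *C. elegans*, an enzyme that transfers a sulfate group to small molecules, and it acts in the ASJ pair of sensory neurons. The nuclear hormone receptor NHR-1 works downstream of it in the response to osmotic stress. Embryos exposed to high salt make protective solutes such as glycerol and arrest their development after hatching, a decision in which insulin-like signaling through the FOXO transcription factor DAF-16 also takes part.

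Transcript levels are given as FPKM (mapped fragments scaled to gene length and to the total of the library), and differences as the *ssu-1* mean minus the wild-type mean of log2(FPKM + 1), with the standard error of the limma fit. The scale understates the change of genes at low FPKM. *ssu-1* itself was at an FPKM of 2.35 and 1.78 in the wild-type libraries and 0.93 and 0.37 in the mutant libraries. The ranges did not overlap, but the difference of -0.91 ± 0.19 did not pass the test (limma, adjusted p = 0.0664). At 500 mM NaCl *ssu-1* was at 2.83, 2.99 and 2.74 in wild type and 1.64, 1.74 and 1.21 in the mutant. There it passed as lower (-0.61, limma adjusted p = 0.0441). An allele that changes the protein need not change the transcript. *daf-16*, which the listed transgene would add to, was at 123 and 124 in wild type and 114 and 120 in the mutant at 50 mM (-0.07 ± 0.06, limma adjusted p = 0.593). *rol-6*, the transgene's marker gene for a rolling movement, stood at 0.67 and 0.51 and 0.92 and 0.44 in the same order, with overlapping groups, and was below the filter on low values. No excess of either transgene component was therefore seen in the mutant libraries. Judged by the steps between their low values, the 4 libraries held an estimated 20600000 to 25100000 fragments, so that 1 fragment on a 1-kb gene was worth an FPKM of about 0.0398 to 0.0485, and log2 levels of replicates correlated at Pearson r = 0.992 and 0.993 across genes, which are not independent replicates.

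At 50 mM NaCl few genes passed the test between the *ssu-1* mutant and wild type, and those that passed were mostly lower in the mutant. Of 13924 genes tested, 90 passed an adjusted p of 0.05 (limma, 0.646% of the genes), 67 of them lower in *ssu-1* (0.481%) and 23 higher (0.165%). At least 2-fold differences on the log2(FPKM + 1) scale made up 39 of the 67 and 14 of the 23. The median difference of all genes tested was 0.02, with 7737 genes above 0 and 6187 below. An unadjusted p under 0.05 was found for 1741 genes, 864 higher and 877 lower, so that the lean toward decreases was that of the called genes. The counts leaned on single libraries. Without wild-type replicate 1, 23 genes were lower and 8 higher, and without wild-type replicate 2, 134 were lower and 20 higher. Leaving out mutant replicate 1 gave 40 lower and 13 higher, and leaving out mutant replicate 2 gave 37 lower and 11 higher. Of the 90 genes, 28 passed in each of these 4 fits, 23 lower and 5 higher, and 8 of the 90 form 4 pairs with identical values in every library, in which the reads of near-identical copies cannot be told apart.

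The decreases were led by 2 genes that were almost lost from the mutant. *F56A4.3*, a gene without a given name, was at an FPKM of 36.6 and 31.6 in wild type and 0.23 and 0 in the mutant, a difference of -4.98 ± 0.15 (limma, adjusted p = 5.34e-08). *clec-209*, which encodes a protein with a C-type lectin domain, was at 85.8 and 62.5 against 3.27 and 2.02, a mean 28-fold higher in wild type (-4.37 ± 0.17, limma adjusted p = 4.46e-07). Since whole embryos were sequenced, fewer expressing cells and less RNA per cell cannot be told apart. Both genes kept their call in all 13 alternative settings tried. By the rule set for genes present in one strain only, no gene qualified in either direction, since *F56A4.3* still gave a low value in 1 mutant library.

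Next in size came genes whose mutant level was several fold lower. *tag-293* was at 5.36 and 3.69 in wild type and 0 and 0.04 in *ssu-1* (-2.42 ± 0.21, limma adjusted p = 4.04e-04). *R09F10.1* was at 16 and 13.5 against 2.76 and 2.61, a 5.50-fold difference of the means (-2.09 ± 0.12, limma adjusted p = 1.01e-05). *cex-1*, which encodes a calcium-binding protein of the calexcitin type, was at 18.4 and 15.7 against 4.15 and 5.58 (-1.63 ± 0.13, limma adjusted p = 1.85e-04). In none of these did a mutant library reach the lower wild-type library, which was a condition for naming them. The rest of the 12 largest decreases, which include *gst-15* and *T23F2.4* described below, were *K01D12.8*, *srbc-15* (a chemoreceptor pseudogene by annotation), *F46F2.3*, *Y39H10A.1* and *C13B7.6*, with differences from -1.8 to -1.58.

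**Figure D1:**
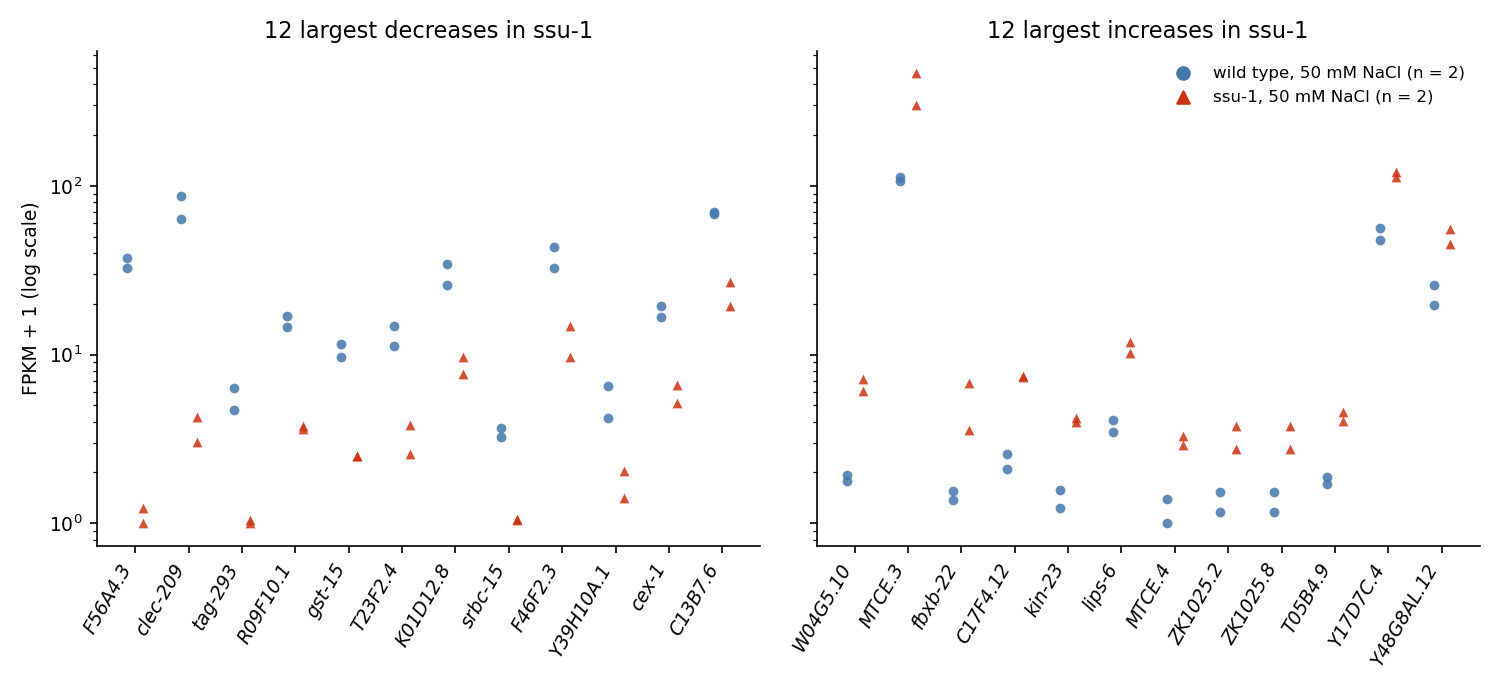
FPKM + 1 on a log axis for the 12 largest decreases (left) and the 12 largest increases (right) among the genes called at 50 mM NaCl; each circle is a wild-type library and each triangle an *ssu-1* library. Only called genes whose strains did not overlap were eligible, so that the 2 strains separate by choice. The decreases reach further than the increases, with *F56A4.3* falling from 36.6 and 31.6 to 0.23 and 0.

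Some enzymes that detoxify reactive compounds were among the lowered genes, which made up 0.481% of all genes tested. *gst-15*, one of the glutathione S-transferases, which attach glutathione to reactive molecules, was at an FPKM of 10.6 and 8.70 in wild type and 1.51 and 1.51 in *ssu-1*, and the *ssu-1* mean was 6.38-fold lower (-2.08 ± 0.10, limma adjusted p = 4.12e-06). The more abundant *gst-10* was at 96.8 and 77.6 against 48.4 and 41.1 (-0.94 ± 0.11, limma adjusted p = 0.00305). Of 41 glutathione S-transferase genes tested, these 2 passed and both were lower. At an unadjusted p under 0.05 (limma), 10 of the 41 were lower and 0 higher. The family's median difference was -0.20, or -0.09 without wild-type replicate 1. *sod-3*, a mitochondrial manganese superoxide dismutase and a familiar target of DAF-16, was at 3.06 and 2.10 in wild type and 0.36 and 0.32 in the mutant (-1.4 ± 0.18, limma adjusted p = 0.00456). It alone passed among 21 redox defence genes tested, 11 of which were above 0 (median 0.005). At an unadjusted p under 0.05 (limma), 5 of the 21 were lower and 0 higher. Other detoxification families had 0 passing, with 51 cytochrome P450 genes (median -0.04) and 54 UDP-glucuronosyltransferase genes (median -0.05) tested. At an unadjusted p under 0.05 (limma) these had 14 and 10 genes (27.5% and 18.5%), against 12.5% of all genes tested. Among 18 DAF-16 targets on the list used, *sod-3* and *gst-10* fell, 0 rose and the median was -0.24, or -0.13 without wild-type replicate 1. At an unadjusted p under 0.05 (limma), 7 of the 18 were lower and 0 higher.

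Nuclear hormone receptors are transcription factors that respond to small lipophilic molecules. Of the 204 genes of the family tested, 3 fell and 1 rose, where 0.481% and 0.165% of all genes tested did. The family did not lean as a whole, with 95 genes above 0, 109 below and a median of -0.01. *nhr-3* was at 90.7 and 86.9 in wild type and 59.9 and 59.6 in *ssu-1* (-0.56 ± 0.08, limma adjusted p = 0.00678), and the neighbors *nhr-93* (1.81 and 2.05 against 0.10 and 0.06) and *nhr-221* (6.80 and 5.49 against 2.06 and 2.39) fell by 1.44 and 1.14 on the log2 scale. *nhr-57*, known as a gene induced in low oxygen, rose from 12.1 and 13.4 to 22.5 and 31.2 (1.00 ± 0.16, limma adjusted p = 0.0156). *nhr-1*, the receptor that works with SSU-1, was at 119.40 and 111 against 93.4 and 105 and did not pass (-0.22 ± 0.08, limma adjusted p = 0.289). At 500 mM NaCl its difference was of similar size and passed as lower (-0.26, limma adjusted p = 0.0338). Outside this family, *nlp-28*, which encodes a small secreted peptide of the antimicrobial type, was at 26.6 and 19.8 against 6.75 and 8.15 (-1.51 ± 0.18, limma adjusted p = 0.00297), the only one of 100 neuropeptide genes tested to pass.

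Single members of protease, hedgehog-related and collagen families were also lower, where 0.481% of all genes tested were. Of 20 aspartyl and cathepsin protease genes tested, 2 fell, and at an unadjusted p under 0.05 (limma) 7 were lower and 2 higher. *asp-5*, an aspartyl protease, was at 167 and 125 in wild type and 45.2 and 53.3 in *ssu-1* (-1.54 ± 0.15, limma adjusted p = 8.25e-04). The cathepsin B-like protease gene *cpr-1* was at 54.6 and 43.5 against 26.7 and 33.7 (-0.68 ± 0.13, limma adjusted p = 0.0475). Of 40 hedgehog-related groundhog and warthog genes, *grd-2*, *grd-3* and *wrt-8* fell, with differences from -0.74 to -1.15, and 0 rose. At an unadjusted p under 0.05 (limma), 9 of the 40 were lower and 0 higher. Of 89 collagen genes, *col-156* (5.41 and 4.13 against 1.57 and 1.38) and *col-93* (20.2 and 20.7 against 10.7 and 12.3) fell. At an unadjusted p under 0.05 (limma), 40 of the 89 were lower and 0 higher. Where the mean FPKM over the 10 libraries of the experiment, those at 500 mM included, reached 50, the largest decreases besides *asp-5* and *gst-10* were those of *T23F2.4*, *F55H12.4* (43.9 and 30.6 against 13.4 and 13.5) and *M60.4* (272 and 196 against 92.5 and 109), of which *T23F2.4* and *F55H12.4* reached that mean only through their levels at 500 mM. *mct-1*, named for a monocarboxylate transporter, fell from 33 and 29.2 to 9.74 and 9.94 (-1.56 ± 0.10).

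The largest increases were smaller than the largest decreases. *W04G5.10* was at 0.94 and 0.77 in wild type and 6.15 and 5.11 in *ssu-1*, a mean 6.58-fold higher (1.83 ± 0.15, limma adjusted p = 2.71e-04). *lips-6*, a lipase-related gene, was at 2.46 and 3.09 against 9.17 and 10.8 (1.54 ± 0.20, limma adjusted p = 0.00483), the only one of 13 lipase genes tested to pass. *C17F4.12* was at 1.59 and 1.10 against 6.45 and 6.39 (1.67 ± 0.20, limma adjusted p = 0.00297). These 3 were chosen among genes without overlap, and their mutant libraries lay well above both wild-type libraries. The F-box gene *fbxb-22* was at 0.38 and 0.56 against 2.57 and 5.79, with the mutant libraries far apart (1.75 ± 0.33, limma adjusted p = 0.0474). Annotated pseudogenes made up 3 of the 23, *kin-23* and the pair *Y17D7C.3* and *Y17D7C.4*, of which *Y17D7C.4* rose from 46.5 and 55.6 to 119.02 and 112.

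Some transcripts of the mitochondrial genome, which encodes subunits of the respiratory chain, were higher in the mutant. This group was chosen after its values were seen. *MTCE.3*, the ND6 subunit of respiratory complex I, was at 106 and 111 in wild type and 299 and 464 in *ssu-1* (1.77 ± 0.25, limma adjusted p = 0.01). *MTCE.11*, the ND1 subunit of the same complex, was at 810 and 875 against 1118 and 1174 (0.44 ± 0.08, limma adjusted p = 0.0475). The fits that left out one replicate kept the call of *MTCE.3* in 2 of 4 cases and that of *MTCE.11* in 0. In all, 5 of the 12 mitochondrial protein-coding genes passed, 0 fell, 12 of 12 differences were above 0, and their median was 0.50 against 0.02 for all genes. The wild type of the *daf-16* experiment spanned a wider range at the same NaCl concentration, with *MTCE.3* at 223, 274 and 1037, so that the mutant values lay inside the range of the 5 wild-type libraries.

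The 500 mM libraries of the same strains, 3 of each, share no library with the comparison at 50 mM and show which differences were found again under osmotic stress. Both comparisons took the spread of a gene from 1 fit of all 10 libraries, however. Genes called at 50 mM were thus partly chosen for a small spread, which eases passing at 500 mM. The shares of all genes given beside the counts do not allow for this. Of the 67 lowered genes, 62 had a difference below 0 at 500 mM and 52 passed as lower there, where 2.82% of all genes tested did. The groups did not overlap at 500 mM in 59 of the 67, against 9.12% of all genes. Of the 23 raised genes, 21 were above 0 at 500 mM and 15 passed as higher, against 2.83% of all genes, and 18 did not overlap, against 16.2%. The 2 that passed in the opposite direction were *F41C3.2*, lower at 50 mM (-0.63) and higher at 500 mM (0.41), and *fdx-2*, a ferredoxin gene, higher at 50 mM (0.31) and lower at 500 mM (-0.21). *F56A4.3* was at 24.8, 31.2 and 30.7 in wild type at 500 mM and at 0 in the 3 mutant libraries, so that its difference was as large there (-4.89). *R09F10.1* (-1.72), *mct-1* (-1.49) and *C13B7.6* (-1.46) also kept about the size they had at low salt.

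Some differences depended on the NaCl concentration. The interaction of genotype and NaCl passed for 17 of the 90 genes, against 1.37% of all genes tested. Among the lowered genes, 7 differed more at 500 mM and 8 more at 50 mM. *T23F2.4* was the extreme of the first kind, at 13.7 and 10.2 against 2.84 and 1.57 at 50 mM and at 279, 243 and 247 against 1.32, 3.98 and 3.60 at 500 mM (interaction 4.06, limma adjusted p = 4.15e-04). The wild-type level was thus far higher at 500 mM, while the ranges of the mutant at the 2 concentrations overlapped. *F42A10.7* was of the second kind, at 54.6 and 34.2 against 17.1 and 17.2 at 50 mM and at 27.3, 24.3 and 35.1 against 33.9, 31.1 and 31.3 at 500 mM (interaction -1.45, limma adjusted p = 0.019). Of the raised genes, *fdx-2* and *MTCE.4* had an interaction.

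**Figure D2:**
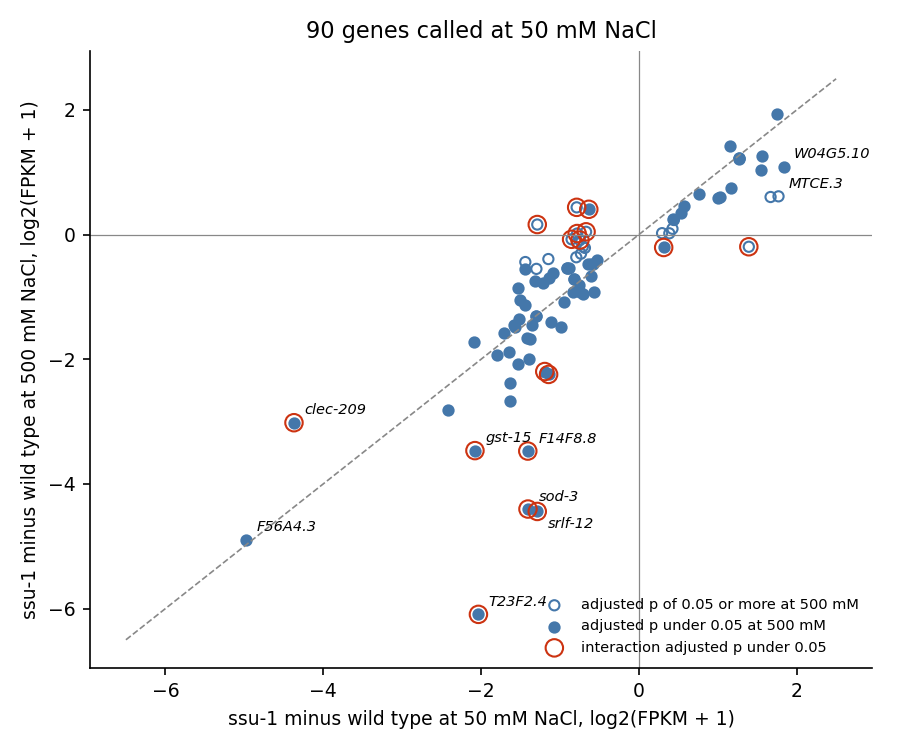
Difference between *ssu-1* and wild type in log2(FPKM + 1) at 50 mM NaCl (horizontal) and at 500 mM NaCl (vertical) for the 90 genes called at 50 mM; filled points passed at 500 mM as well, ringed points passed the test of the interaction, and the dashed line marks equal differences. Most points lie in the lower left and upper right, *T23F2.4*, *sod-3* and *srlf-12* fall far below the line, and *clec-209* lies above it at -4.37 and -3.02.

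Genes that wild type induces with salt were in part already lower in *ssu-1* before any osmotic stress. A list of 239 salt-induced genes (a log2 change above 2 that passed the test) was taken from the wild-type libraries of the *daf-16* experiment. These share no library with this comparison, and part of those at 50 mM NaCl have library numbers apart from the rest. Of the 228 tested here, 13 fell at 50 mM NaCl (limma) and 0 rose, which is 5.70% of the list against 0.646% of all genes. At an unadjusted p under 0.05 (limma), 38 were lower and 25 higher. The median difference of the list was 0.00, and 114 of its 228 genes were below 0 (50.0%, against 44.4% of all genes). The 13 were *gst-15*, *T23F2.4*, *Y39H10A.1*, *F14F8.8*, *sod-3*, *F14D7.12*, *F55H12.4*, *srlf-12*, *M60.4*, *K01A6.7*, *hmit-1.1*, *F45E1.4* and *gpdh-1*. Most of these calls leaned on single libraries and were not kept in every fit that left out a library.

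In 10 of these 13 the deficit was also there at 500 mM. *gst-15* reached 51.9, 51.5 and 55.3 in wild type at 500 mM and 3.91, 4.05 and 3.68 in *ssu-1*, and *sod-3* reached 30.2, 26.9 and 34.7 against 0.33, 0.73 and 0.43. *srlf-12*, which was at 1.53 and 1.66 in wild type and 0.13 and 0 in the mutant at low salt, reached 24.3, 19.4 and 26 against 0.07, 0.27 and 0. For these 3 the wild-type level at low salt was already above the mutant level at high salt. The other 3 genes of the 13 did not pass at 500 mM. *gpdh-1*, the glycerol-3-phosphate dehydrogenase that makes glycerol in osmotic stress, was at 4.42 and 4.70 against 2.81 and 2.21 at 50 mM (-0.67 ± 0.10, limma adjusted p = 0.011) and at 196, 228 and 222 against 208, 223 and 234 at 500 mM (0.05, limma adjusted p = 0.823). *hmit-1.1*, which encodes a transporter of the solute myo-inositol, went from 18.2 and 15 against 8.26 and 10.2 to 39, 37.8 and 46.5 against 42.9, 40.7 and 40.7, and its interaction passed as that of *gpdh-1* did (limma, adjusted p = 0.0398 and 0.0234). Other salt-responsive genes did not differ detectably at low salt, among them *gpdh-2* (-0.07 ± 0.08, limma adjusted p = 0.73), *lea-1* (-0.11 ± 0.08, limma adjusted p = 0.58) and the superoxide dismutase *sod-5* at 0.93 and 1.10 against 0.26 and 0.74 (-0.44 ± 0.16, limma adjusted p = 0.32).

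**Figure D3:**
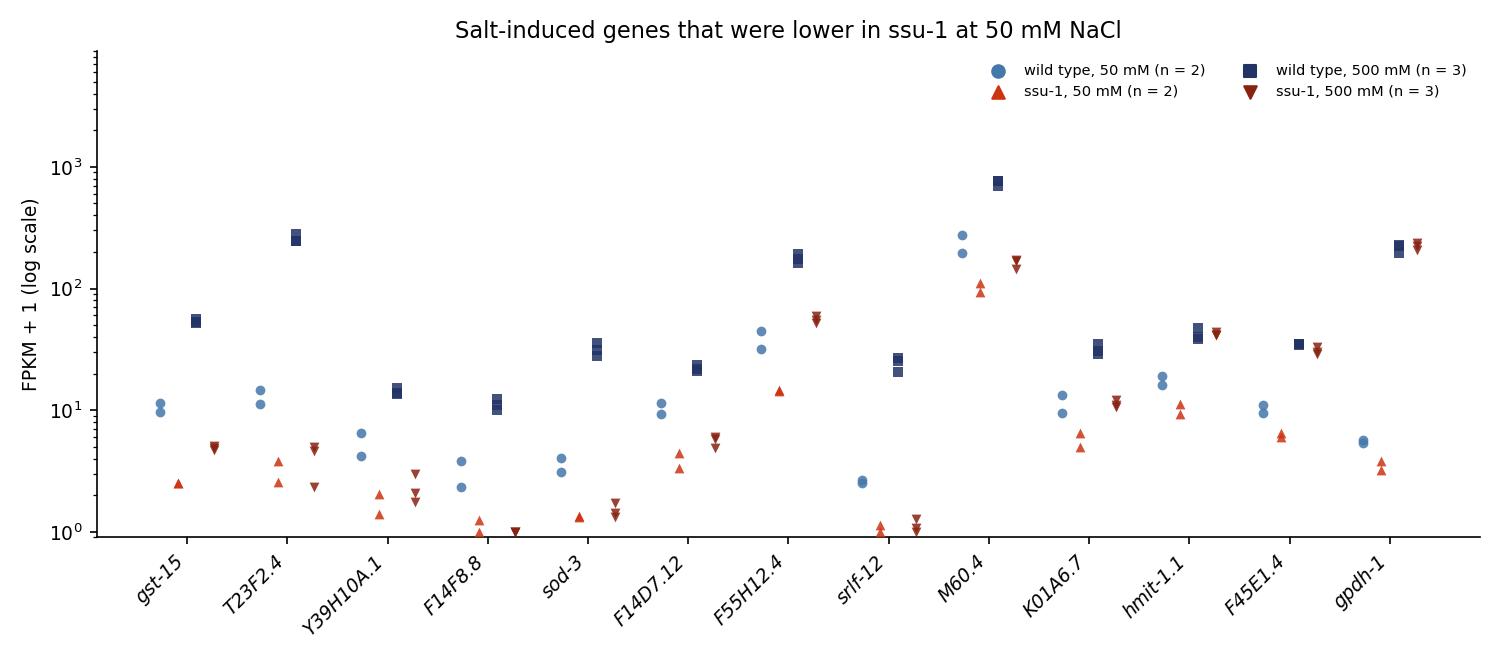
FPKM + 1 on a log axis for the 13 salt-induced genes that were lower in *ssu-1* at 50 mM NaCl, with 2 libraries of each strain at 50 mM and 3 at 500 mM. At 500 mM the mutant stays far below wild type for *T23F2.4* (279, 243 and 247 against 1.32, 3.98 and 3.60) and *sod-3*, and the strains meet for *gpdh-1* and *hmit-1.1*.

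The 3 wild-type libraries at 50 mM NaCl from the *daf-16* experiment gave a wider view of normal variation. The libraries of the *ssu-1* experiment did not overlap in any of the 90 genes, so that the mutants lay outside 2 of these 5 wild-type libraries by the choice of genes. In 59 of the 67 lowered genes both mutant libraries lay below the other 3 as well, and in 14 of the 23 raised genes both lay above them. Over all genes tested the mutant libraries lay below all 5 in 11.9% and above all 5 in 16.8%, shares that are not comparable with those of genes chosen by a call. The 8 lowered genes inside the range were *K01D12.8*, *nhr-221*, *K01A6.7*, *hmit-1.1*, *ccep-135*, *gpdh-1*, *pqn-63* and *C10F3.7*. *gpdh-1*, for example, was at 3.61, 2.51 and 1.88 in the other experiment's wild type. The wild types of the experiments also differed from each other in many of the lowered genes. In 26 of the 67 (38.8%) the *daf-16* experiment's wild type was at least 2-fold above that of the *ssu-1* experiment without overlap, against 15.2% of all genes. *F46F2.3* was at 42.3 and 31.7 in the one and at 890, 415 and 429 in the other.

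Of the lowered genes, 12 of 67 also fell in the *daf-16* mutant at 50 mM NaCl, relative to the wild type of its experiment. Another 3 of the 67 were higher. Over 14868 genes tested there, 1.10% were lower and 2.58% higher. The 12 include 2 pairs with identical values, *C01B4.6* with *Y19D10A.16* and *C01B4.7* with *Y19D10A.4*. Wild-type replicates 3 and 4 have library numbers apart from the rest of that experiment, and any effect of this was not tested. The labels list the *daf-16* alleles m26 and mu86 for that strain, and the methods name m26. *F56A4.3* was at 76.3, 57.3 and 41.7 in that wild type and at 0 in the 3 *daf-16* libraries (-5.85, limma adjusted p = 1.11e-09). *srbc-15* was at 4.92, 3.77 and 5.30 and likewise at 0 in the 3 *daf-16* libraries, after 2.67 and 2.25 against 0.05 and 0.06 in the *ssu-1* experiment. *clec-209* was at 318, 183 and 196 in wild type and 12, 8.29 and 15.4 in *daf-16* (-4.17, limma adjusted p = 6.49e-06). The differences of these 3 genes therefore occurred in both mutant strains, and so did those of *mct-1* (-1.56 in *ssu-1* and -1.33 in *daf-16*), *C13B7.6* (-1.58 and -1.42) and the identical pair *C01B4.6* and *Y19D10A.16* (-1.3 and -1.09). *sod-3* and *srlf-12* were lower in both as well. What the mutant strains share apart from the named alleles was not tested.

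Other large decreases were not seen in *daf-16*. *tag-293* was at 12.8, 7.27 and 8.86 in wild type and 6.72, 7.41 and 7.12 in *daf-16* (limma, adjusted p = 0.237), *R09F10.1* at 24.6, 19.1 and 22.2 against 21.6, 21.9 and 23.4 (adjusted p = 0.917), and *gst-15* at 26.6, 18.3 and 19.9 against 19.4, 22.7 and 24.8 (adjusted p = 0.881), in each case with overlap between the groups. *K01D12.8*, *nlp-28* and *K01A6.7* were higher in *daf-16*. Of the 21 raised genes tested in that experiment, *C17F4.12* was higher in *daf-16* too (1.12), where 2.58% of all genes were, and *Y17D7C.3* was lower (-0.31). The difference between the mutants' effects was not tested, since they were measured in separate experiments.

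**Figure D4:**
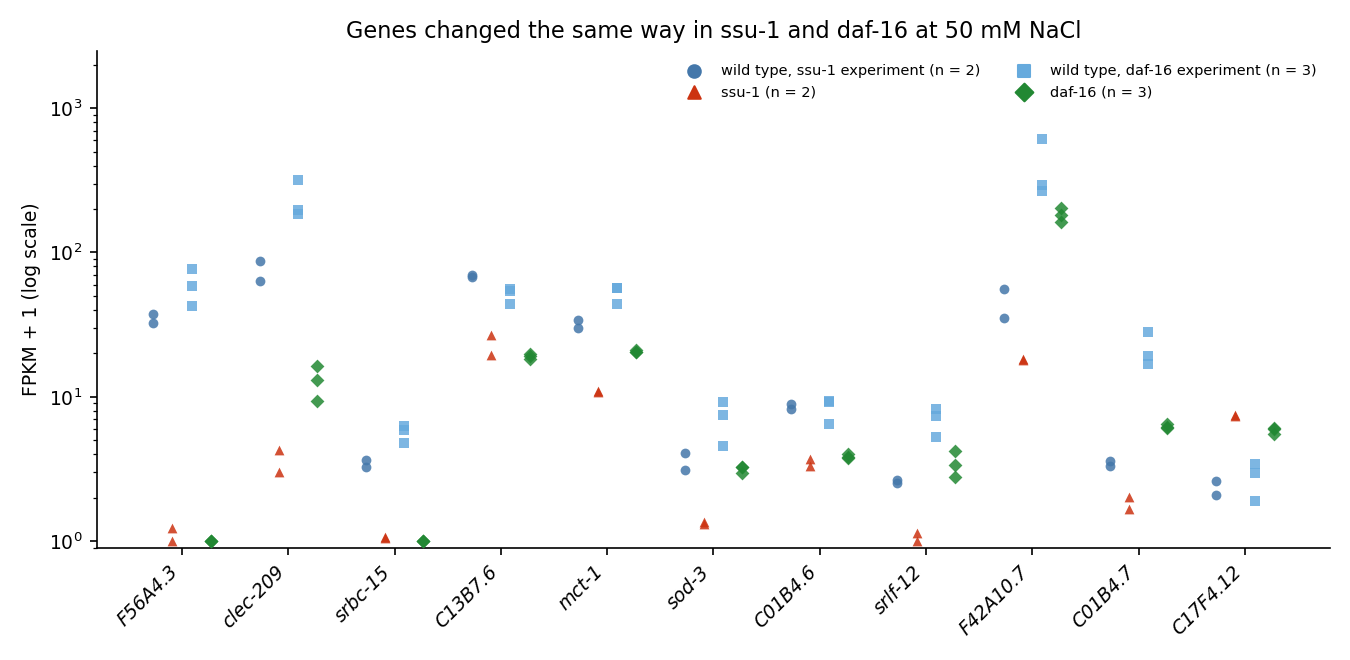
FPKM + 1 on a log axis at 50 mM NaCl for genes that differed from wild type in the same direction in *ssu-1* and in *daf-16* mutants, each with the wild type of its own experiment (2 libraries of each strain in the *ssu-1* experiment and 3 of each in the *daf-16* experiment). *F56A4.3* and *srbc-15* are at or near 0 in both mutants, and of the pairs with identical values 1 member is drawn.

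Several of the lowered genes are neighbors in the RefSeq gene order, and how often genes chosen otherwise are neighbors was not tested. *clec-209*, *mct-1*, *Y19D10A.16* and *Y19D10A.4* lie in one stretch, with at most 3 genes between *mct-1* and each of the others. The adjacent genes *C01B4.6* and *C01B4.7*, elsewhere in the genome, have the same values as *Y19D10A.16* and *Y19D10A.4*, so that the position of that signal is uncertain. *F56A4.3* is adjacent to *str-267*, whose values (1.73 and 2.13 against 0.73 and 0.58) are those of *str-154*, the neighbor of *gst-10*. *nhr-93* and *nhr-221* are adjacent too.

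The pathways in which SSU-1 is placed showed few other differences that passed at low salt, where 0.646% of all genes tested passed. Of all genes tested, 12.5% had an unadjusted p under 0.05 (limma) and 44.4% were below 0. Of 15 sulfation genes tested, 0 passed (limma; 1 of 15 at an unadjusted p under 0.05, which was *ssu-1*). Of 13 genes from the insulin receptor to DAF-16, 0 passed, also at an unadjusted p under 0.05, and of 10 steroid hormone receptor and synthesis genes 0 passed, with 1 at an unadjusted p under 0.05. Phosphatidylcholine and lysophospholipid metabolism had 0 of 24 (3 at an unadjusted p under 0.05, median 0.07), and peroxisomal beta-oxidation, which shortens fatty acids, had 0 of 13 (3 at an unadjusted p under 0.05) with 13 of 13 below 0 and a median of -0.22, or -0.06 without wild-type replicate 1. Among 32 genes of osmolyte synthesis and osmotic stress, *hmit-1.1* and *gpdh-1* fell, 26 were below 0 and the median was -0.12, or -0.06 without that library. At an unadjusted p under 0.05 (limma), 8 of these were lower and 1 higher. Of 32 innate immunity genes, *nlp-28* fell, 29 were below 0 and the median was -0.33, or -0.20 without that library, and 13 were lower at an unadjusted p under 0.05. Markers of ASJ and other amphid neurons had 0 of 10 passing (1 at an unadjusted p under 0.05), with a median of -0.03.

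Lists of genes that mark developmental stages lay unequally about 0 at low salt, and none of their genes passed the test. Over all genes tested 44.4% were below 0, and 12.5% had an unadjusted p under 0.05 (limma). Of 24 maternal and early embryonic genes, 24 were above 0 with a median of 0.28, and of 21 germline genes 19 were above 0 with a median of 0.19, against 0.02 for all genes, while 0 passed in either list (limma, with 0 and 3 at an unadjusted p under 0.05). The summed FPKM of the maternal genes tested was 238 and 286 in wild type and 291 and 340 in *ssu-1*. Of 14 genes of the gastrulation stage 11 were above 0 (median 0.14, 4 higher at an unadjusted p under 0.05), and of 20 genes of tissue specification in the mid-embryo 15 were (median 0.06, 0 at an unadjusted p under 0.05). The list for late embryos and hatching was balanced, with 10 genes above 0 and 12 below (median -0.02, 2 at an unadjusted p under 0.05).

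The lists of differentiated tissues did not all lie on one side of 0. For comparison, 44.4% of all genes tested were below 0 and 12.5% had an unadjusted p under 0.05 (limma). Of 17 muscle genes 13 were below 0 (median -0.27, 0 passing, 9 at an unadjusted p under 0.05), of 14 pharynx genes 13 (median -0.21, 0 passing, 3 at an unadjusted p under 0.05), of 20 neuronal genes 16 (median -0.17, 0 passing, 4 at an unadjusted p under 0.05), of 100 neuropeptide genes 86 (median -0.22) and of 89 collagen genes 77 (median -0.26). At an unadjusted p under 0.05 (limma), 40 collagen genes were lower and 0 higher, and 23 neuropeptide genes were lower and 1 higher. Intestine markers had 12 of 16 below 0 (median -0.14, 4 at an unadjusted p under 0.05), among them *cpr-1*. The other lists had medians near 0, with 8 of 15 epidermis markers below 0 (median -0.02), among them the called *grd-2*, 10 of 24 cilia markers (median 0.01, 0 at an unadjusted p under 0.05) and 4 of 13 furrow and body-shape collagens (median 0.01, 0 at an unadjusted p under 0.05). The collagen sum was 13803 and 10947 in wild type and 9154 and 9988 in *ssu-1*, with wild-type replicate 1 the highest, and without that library the medians were 0.16 for the maternal list, 0.07 for germline, -0.15 for muscle, -0.10 for pharynx, -0.09 for neurons, -0.16 for collagens and -0.09 for neuropeptides.

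At 500 mM NaCl 8 of these 14 lists had a median of the opposite sign. Of the 24 maternal genes 22 were below 0 there, with a median of -0.26, as were 17 of 21 germline genes (median -0.05). The summed FPKM of the maternal genes at 500 mM was 546, 410 and 306 in wild type and 344, 386 and 330 in *ssu-1*. These groups overlapped, with wild-type replicate 1 the highest and wild-type replicate 3 the lowest. No fit left out a library at 500 mM, so the dependence of these medians on single libraries was not tested. Above 0 were 20 of 20 neuronal, 13 of 14 pharynx and 66 of 100 neuropeptide genes, with medians of 0.17, 0.21 and 0.07. The medians of intestine (0.03), cilia (-0.02) and furrow and body-shape collagens (-0.22) had changed sign too. Those of muscle and of the collagen family kept theirs and were smaller in size, with 10 of 17 muscle genes (-0.03) and 54 of 89 collagen genes (-0.07) below 0. The lists for gastrulation (0.02), mid-embryo (0.03), late embryo (-0.09) and epidermis (-0.10) also kept their sign. The part of developmental stage in the differences at either concentration was not tested. Sperm and major sperm protein genes gave 0 genes above the filter, and of 6 yolk genes of the adult intestine 1 passed it, with a difference of -0.01.

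**Figure D5:**
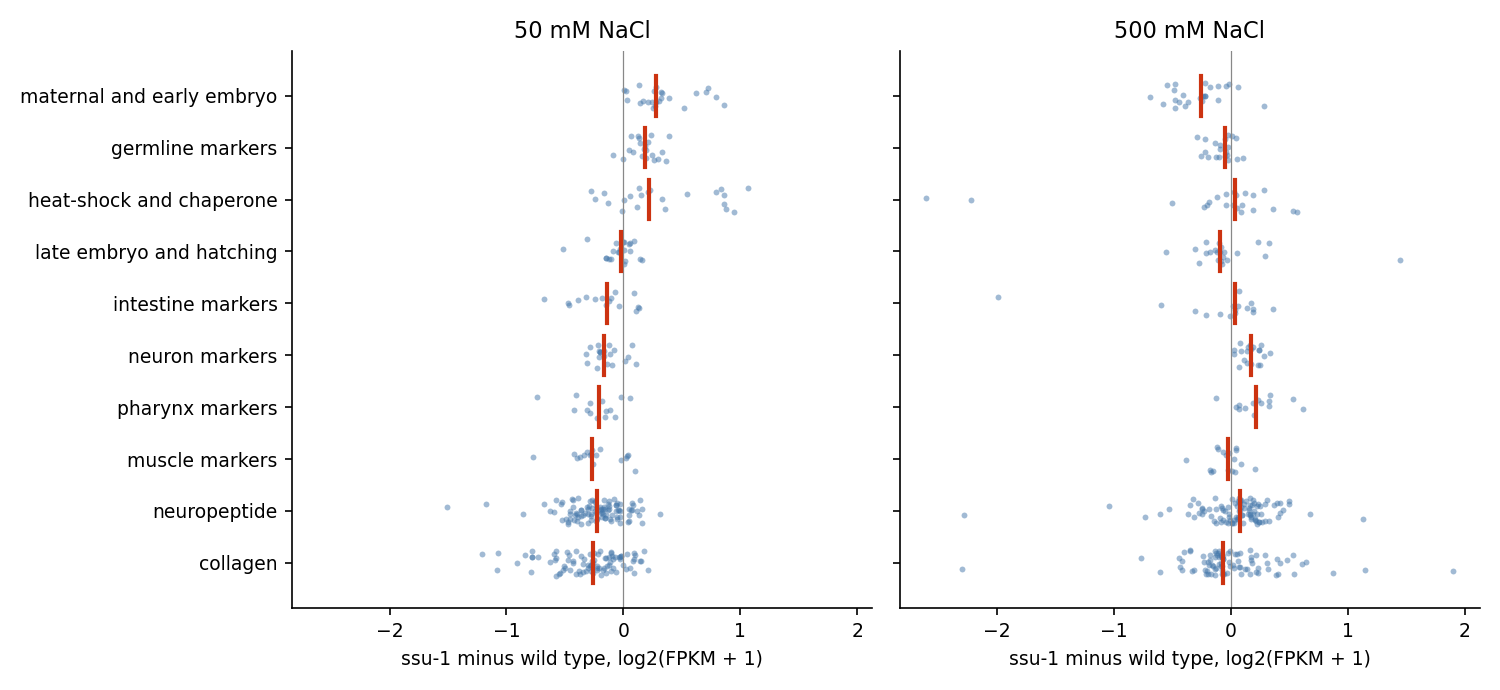
Difference between *ssu-1* and wild type in log2(FPKM + 1) for the genes of 10 stage, tissue and family lists at 50 mM NaCl (left) and 500 mM NaCl (right); each point is a gene, placed at random height within its row, and each red bar a list's median. The maternal list lies above 0 at 50 mM (median 0.28) and below 0 at 500 mM (median -0.26), where its summed FPKM overlapped between the strains. Collagens and neuropeptides lie mostly below 0 at 50 mM.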

How the data were processed

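Per the labels and the paper's methods, the authors prepared libraries with Illumina NeoPrep, mapped reads to ce10 with RSEM 1.2.15 and Bowtie 1.0.1 and deposited FPKM per gene for 22 libraries. Their methods also name DESeq2 on rounded expected counts, which were not used here. Of 45461 rows, 1 without a gene name was left out (at most 0.0425% of a library's FPKM). Symbols (44079 of 45460 matched) and gene order came from a RefSeq table of WBcel235, another build, so no coordinates are given. limma 3.58.1 in R 4.3.3 (eBayes with trend) was run on log2(FPKM + 1) with the 10 libraries of the *ssu-1* experiment in 1 fit, over genes that reached an FPKM of 1 in 2 or more libraries, with Benjamini-Hochberg adjustment over all of them and a threshold of 0.05. The *daf-16* experiment was fitted the same way. Fragment totals were inferred from the steps between low FPKM values.

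The fit was tested on simulated data for the comparison at 50 mM (13650 genes tested), where it called 100 of 100 genes changed 4-fold, 75 of 100 changed 2-fold and 11 of 13450 unchanged genes. The simulated libraries varied independently, all genes had the same dispersion, and no gene of the lowest FPKM was changed. Shifts of many genes in a single library were not simulated, so these figures do not cover the dependence of the real calls on single libraries. Named genes were the 12 largest differences each way, the 5 largest each way at a mean FPKM of at least 50 over the 10 libraries, up to 4 called genes per list, up to 4 each way by the interaction, and *ssu-1*, *daf-16*, *rol-6*, *nhr-1*, *sod-5*, *lea-1*, *gpdh-1* and *gpdh-2*; others were named after their values were seen. The 12 and the 5 largest were taken among called genes whose strains did not overlap at 50 mM. The libraries compared and the 53 gene lists were chosen with earlier results of these data known. Alternatives changed the pseudocount, filter, scaling, variance trend, samples and replicate block.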

Additional observations from a re-analysis of the deposited data

Results flagged for a closer look

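For 17 genes called at 50 mM NaCl the difference between *ssu-1* and wild type was not the same at both NaCl concentrations, by the test of the genotype and NaCl interaction (limma, adjusted p from 3.60e-05 to 0.0487). The interaction is the difference at 50 mM minus that at 500 mM, so that a negative value for a lowered gene means a larger deficit at low salt.

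Lowered genes with the larger deficit at 500 mM were *T23F2.4* (4.06), *srlf-12* (3.15), *sod-3* (3.00), *F14F8.8* (2.07), *gst-15* (1.39), *nhr-221* (1.1) and *M60.4* (1.00). All but *nhr-221* belong to the wild-type salt list.

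Lowered genes with the larger deficit at 50 mM were *F42A10.7* (-1.45), *clec-209* (-1.35), *F16B4.4* (-1.23), *F41C3.2* (-1.04), *hmit-1.1* (-0.80), *F53B3.6* (-0.78), *gpdh-1* (-0.71) and *F54B8.4* (-0.66). Of these, *clec-209* alone was also lower by the test at 500 mM, and *F41C3.2* was higher there.

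The raised genes were *MTCE.4* (1.59), which was at 0.39 and 0 against 2.31 and 1.90 at 50 mM and at 0.24, 0.56 and 0.37 against 0, 0.30 and 0.36 at 500 mM, and *fdx-2* (0.52).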

How the results depend on the processing

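Limits: with 2 libraries a group the calls leaned on each library, and differences of genes at an FPKM near 1 rest on few fragments. Of 13 alternatives for the comparison at 50 mM, 26 of the 90 genes (21 lower and 5 higher) passed in every one. Each of the 90 that could be tested kept its sign in all 13. Since the strains did not overlap in any of the 90, most of these settings could not have changed a sign. Leaving out 1 library gave 23 to 134 genes lower and 8 to 20 higher, with 20 to 72 at least 2-fold lower and 7 to 10 at least 2-fold higher; the arm left with 1 library is assumed to vary like the other groups. With only the 4 libraries at 50 mM in the fit, 44 genes were lower, 12 higher and 9 at least 2-fold higher. A pseudocount of 5 left 17 at least 2-fold lower and 4 at least 2-fold higher, which follows from its smaller log2 differences, and a filter of FPKM 5 left 9 at least 2-fold higher, with fewer genes tested. The pseudocount of 0.1, no filter, rescaled and quantile-normalized FPKM and no variance trend left 60 to 86 lower and 16 to 25 higher. Under rescaling 83 were lower and 25 higher. The genes of the 90 that also passed at 500 mM numbered 67 and ranged from 50 to 78 over the settings run, and those with an interaction numbered 17 and ranged from 12 to 23; causes were not tested. Among the genes named by rule, *gpdh-2*, which did not pass, ranged from -0.19 to 0.049 when 1 library was left out. It changed sign without wild-type replicate 1. The other 775 values kept their sign, which for the called genes was largely fixed by the lack of overlap. With a replicate block, 65 genes were lower and 15 higher, and 70 of the 90 passed. The labels give the strains the same replicate numbers, and no source pairs them. Deviations of same-numbered libraries correlated at 0.03 at 50 mM and at -0.03, 0.00 and 0.06 at 500 mM. At 500 mM wild-type replicates 1, 2 and 3 correlated best with mutant replicates 2, 3 and 1 (0.22, 0.17 and 0.19). These values cannot tell whether cultures or preparations were shared.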

Other observations

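Some gene groups outside the comparisons above lay mostly on one side of 0 at 50 mM NaCl with few or no single genes passing. Among all genes tested, 44.4% were below 0 and 12.5% had an unadjusted p under 0.05 (limma). Of 33 proteasome genes 31 were above 0 (median 0.09, 0 passing by limma, 1 at an unadjusted p under 0.05), and of 234 F-box genes 169 were above 0 (median 0.15), of which *fbxb-22* rose and *fbxa-91* and *fbxa-78* fell. Without *ssu-1* replicate 2 the F-box median was 0.026, and without *ssu-1* replicate 1 the proteasome median was 0.036. Of 87 ribosomal protein genes 71 were below 0 with a median of only -0.03 (0 passing, 1 at an unadjusted p under 0.05), which turned to 0.0046 without wild-type replicate 1 and to 0.0050 without *ssu-1* replicate 2. Of 22 heat-shock and chaperone genes 17 were above 0 (median 0.22, 0 passing, 3 at an unadjusted p under 0.05), and without *ssu-1* replicate 2 that median was -0.01, so that 1 library carried the direction.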
